A study of Mus musculus with 12 samples.

Results

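The genes described here make, bind and break down retinoic acid, and were measured in RNA from cochlear epithelium of mouse embryos at embryonic day 16.5 (C57BL/6, per the labels). They are 10 of the 22869 gene symbols measured by RNA-seq: Rdh10, Dhrs3, Aldh1a1, Aldh1a2, Aldh1a3, Cyp26a1, Cyp26b1, Cyp26c1, Crabp1 and Crabp2. They were taken by name, with earlier results of these data known. All 10 had reads in every embryo and enough reads to be tested. Each gene was represented by its transcript row with the most reads. The study compared 3 Esrp1-/- embryos (Esrp1 knockout) with 3 wild-type embryos (control), with the pooled cochleae of each embryo sequenced as 2 libraries. The knockout lacks the epithelial splicing regulator ESRP1 in all tissues, so that an effect within the epithelium and one from outside it cannot be told apart. The RNA also held reads of markers of tissue outside the epithelium (given below), so that the cells a gene's reads came from are not known. In such RNA, fewer cells of a type and less RNA per cell cannot be told apart either.

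Retinoic acid is a derivative of vitamin A that diffuses between cells and acts through nuclear receptors bound to DNA. RDH10 oxidises retinol to retinaldehyde, DHRS3 reduces retinaldehyde back to retinol, and the ALDH1A enzymes oxidise retinaldehyde to retinoic acid. The CYP26 hydroxylases inactivate retinoic acid, and the CRABP proteins hold it in the cytoplasm and pass it on to these hydroxylases or to the receptors. The sites of synthesis and breakdown set where in an embryo the signal is high or low, and retinoic acid is needed for inner ear development.

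Esrp1 itself had 27.2, 34.3 and 39.1 CPM in knockouts 1, 2 and 3, against 197, 102 and 118 CPM in controls 1, 2 and 3 (CPM, reads scaled to library size with TMM). It fell by 2.05 on the log2 scale (SE 0.26, edgeR's quasi-likelihood test, adjusted p = 0.0354), and missed the threshold without control 3 or any 1 of the knockouts (adjusted p 0.122 to 0.158). Depth ran from 12547301 reads on genes in knockout 1 to 21568516 in control 2. Knockouts 2 and 3 had the Y-linked Ddx3y at 95.0 and 81.9 CPM and Xist, the RNA of the inactive X, at 0.27 and 0.20 CPM. The other 4 embryos had at least 1098 CPM of Xist and under 1 CPM of Ddx3y. Fos, an immediate early gene, stood at 64.6 CPM in knockout 1 and 153 CPM in control 1, and at 1.00 to 7.27 CPM in the other 4 embryos. All 16 cochlear epithelium markers looked for had reads, and so had all 19 markers of periotic mesenchyme, the tissue that the collagenase step was meant to remove, with summed levels of 4144 to 4547 CPM in knockouts and 3261 to 4534 CPM in controls.

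The enzymes that exchange retinol and retinaldehyde, Rdh10 and Dhrs3, stood higher in every knockout than in every control, although edgeR's test called neither over all genes. Rdh10 (chromosome 1, 16105882 to 16132550, mm10) had 83.5, 54.6 and 64.6 CPM in knockouts 1, 2 and 3, against 39.7, 33.6 and 41.5 CPM in controls 1, 2 and 3. The lowest knockout thus lay above the highest control. Its log2 fold change, knockout over control, was 0.82 ± 0.18 (SE, adjusted p = 0.224 in edgeR, 0.00912 in DESeq2). Dhrs3, the opposing reductase (chromosome 4, 144892534 to 144928209), had 38.0, 17.8 and 21.2 CPM in knockouts, against 8.90, 8.53 and 12.5 CPM in controls. Again the groups did not overlap, and knockout 1 stood highest in both genes. Dhrs3 had the largest fold difference of the members with separated groups, with means of 25.7 ± 10.8 CPM in knockouts and 9.98 ± 2.19 CPM in controls (SD, n = 3 each). Its log2 fold change was 1.36 ± 0.30 (SE, adjusted p = 0.241 in edgeR, 0.00239 in DESeq2). Without knockout 1 it was 0.96, the lowest value with 1 embryo left out. The file lists Dhrs3 in 2 transcript rows of 1710 and 1691 reads, and the authors' deposited table gave both rows an FDR under 0.05 (0.00656 and 0.00782). Dhrs3 is on the same chromosome as the deleted Esrp1, at a distance of 134 Mb.

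**Figure D1:**
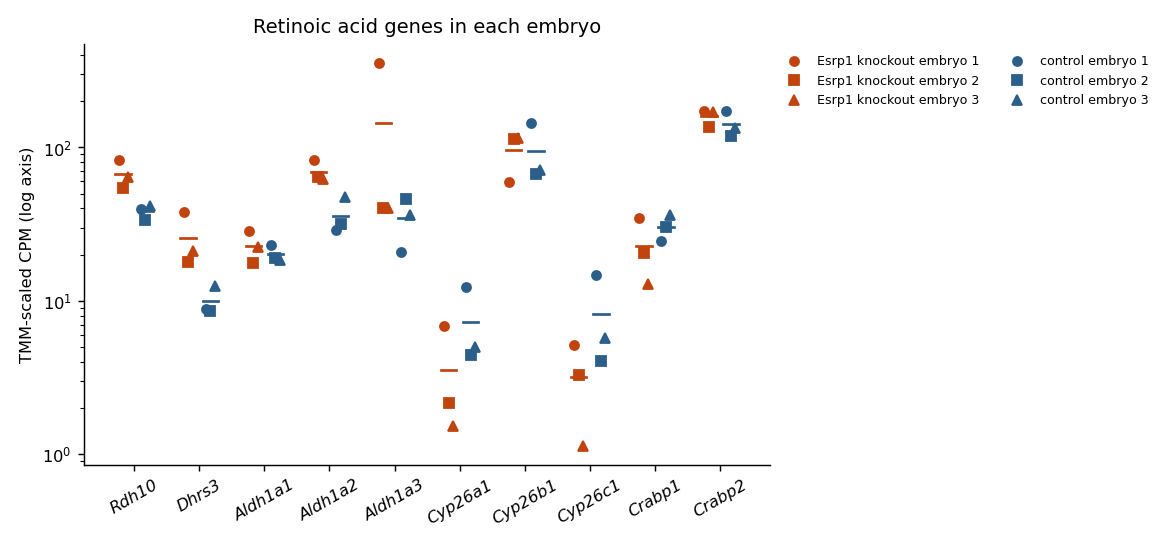
Level of each of the 10 genes in each embryo, in TMM-scaled CPM on a log axis. Points are embryos (shape gives the embryo number), horizontal lines are group means, and Esrp1 knockouts (orange) stand left of controls (blue). Rdh10, Dhrs3 and Aldh1a2 have no overlap between the groups, and Aldh1a3 is at 355 CPM in knockout 1 alone.

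Of the retinaldehyde dehydrogenases, Aldh1a2 was the one with separated groups. Aldh1a2 (chromosome 9, 71215789 to 71296243), the main source of retinoic acid in early mouse embryos, had 82.9, 64.0 and 62.2 CPM in knockouts, against 28.8, 31.6 and 47.2 CPM in controls. Every knockout lay above every control, with the smallest gap between knockout 3 and control 3. The fitted log2 fold change was 0.96 ± 0.21 (SE, adjusted p = 0.237 in edgeR, 0.00554 in DESeq2). Aldh1a3 (chromosome 7, 66390892 to 66427477), which makes retinoic acid in parts of the eye, nose and ear, had 355, 40.4 and 40.6 CPM in knockouts, against 20.9, 46.2 and 36.2 CPM in controls. Knockout 1 was 7.69 times as high as the next embryo, control 2, and knockouts 2 and 3 lay between controls 2 and 3. The log2 fold change of 2.07 ± 0.81 (SE, adjusted p = 0.903) became 0.22 without knockout 1 and -0.037 without both embryos numbered 1. DESeq2 gave this gene no adjusted p, while the authors' deposited table had a log2 fold change of 1.77 with an FDR of 0.0181. Knockout 1 supplied 77.4% of the Aldh1a3 reads of the 3 knockouts. Aldh1a1 (chromosome 19, 20492583 to 20643463), the third enzyme of the group, had 28.6, 17.6 and 22.6 CPM in knockouts and 23.3, 19.1 and 18.5 CPM in controls. The groups overlapped, at a log2 fold change of 0.17 ± 0.20 (SE, adjusted p = 0.994).

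On the per-length scale, FPKM, the makeup of this enzyme group differed between knockout 1 and the rest. Aldh1a3 made up 65.2%, 22.8% and 21.9% of the summed Aldh1a FPKM in knockouts 1, 2 and 3, against 19.1%, 34.7% and 24.8% in controls 1, 2 and 3. Aldh1a2 made up 25.1% in knockout 1, 59.0% and 55.4% in knockouts 2 and 3, and 42.3%, 39.2% and 52.2% in the controls. The sum over the 3 enzymes was 71.2, 21.7 and 21.1 FPKM in knockouts, against 12.2, 16.8 and 18.2 FPKM in controls. With Aldh1a3 left out, the sum of Aldh1a1 and Aldh1a2 was 24.8, 16.8 and 16.5 FPKM in knockouts, against 9.83, 11.0 and 13.7 FPKM in controls, without overlap. Aldh1a2, whose groups were separated already, was the larger part of this sum in every embryo, so that the sum adds no support.

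**Figure D2:**
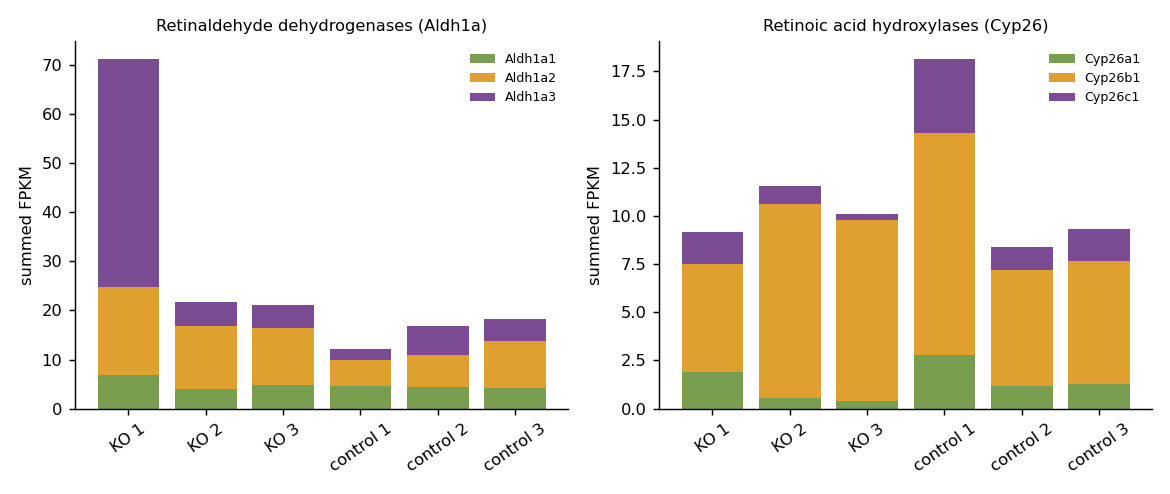
Summed FPKM of the Aldh1a enzymes (left) and the Cyp26 enzymes (right) in each embryo, stacked by gene, with Esrp1 knockouts (KO) left of controls. Knockout 1 has the tallest Aldh1a bar (71.2 FPKM, 65.2% of it Aldh1a3), and Cyp26b1 holds most of every Cyp26 bar.

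Among the retinoic acid hydroxylases, Cyp26a1 and Cyp26c1 were lower on average in knockouts, and the groups of each overlapped. They are neighbours on chromosome 19 (Cyp26c1 at 37685112 to 37693320, Cyp26a1 at 37697738 to 37701536), 4.42 kb apart. These coordinates are the outermost bounds over all RefSeq transcripts of a gene. The promoter windows start elsewhere, from a start site 568 bases inside the bound of Cyp26c1 and 70 bases inside that of Cyp26a1, so that the first window lies wholly within the bounds of its gene and the second partly. The 250 bases before these start sites (GRCm38.p6, the assembly of mm10, both on the plus strand, 5′ to 3′) are shown because Cyp26a1 is a known direct target of retinoic acid, and those of Rarb (minus strand) because this receptor gene is another. Capitals mark the pairs of receptor motifs found by searching both strands for AGGTCA, its variant AGTTCA, the related motif GGGTCA or the further variant GGTTCA, followed after 5 bases by any of the same 4 motifs.
Cyp26a1, chr19:37697558-37697807: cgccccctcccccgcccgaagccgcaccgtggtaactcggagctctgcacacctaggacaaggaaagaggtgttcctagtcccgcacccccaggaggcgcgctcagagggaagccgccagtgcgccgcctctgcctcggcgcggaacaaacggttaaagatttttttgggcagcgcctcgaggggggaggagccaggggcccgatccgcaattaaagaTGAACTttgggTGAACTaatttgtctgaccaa
Cyp26c1, chr19:37685430-37685679: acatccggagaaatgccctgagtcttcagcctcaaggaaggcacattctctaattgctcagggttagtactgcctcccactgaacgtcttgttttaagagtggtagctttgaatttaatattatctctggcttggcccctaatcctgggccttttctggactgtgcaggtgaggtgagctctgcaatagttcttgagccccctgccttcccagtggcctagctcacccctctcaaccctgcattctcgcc
Rarb, chr14:16575477-16575726: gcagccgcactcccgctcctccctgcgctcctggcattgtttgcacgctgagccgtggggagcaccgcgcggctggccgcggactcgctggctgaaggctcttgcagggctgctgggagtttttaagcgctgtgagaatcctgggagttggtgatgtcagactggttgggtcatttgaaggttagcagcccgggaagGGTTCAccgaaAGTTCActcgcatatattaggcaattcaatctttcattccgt
The Cyp26a1 pair lies 32 to 16 bases before the start site of its window, which is within the outermost bounds of the gene, and reads as the motif on the opposite strand, and the Rarb pair lies 53 to 37 bases before that of its own window, also within the gene's outermost bounds. Such a pair was found in 29 of 32851 RefSeq windows of this length, 0.0883%. It was in 1 of the 10 windows of the 7 members that the table holds. A match describes letters, not binding.

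Cyp26a1 had 6.86, 2.15 and 1.53 CPM in knockouts 1, 2 and 3, against 12.2, 4.45 and 5.01 CPM in controls 1, 2 and 3. Knockout 1 lay within the control range, while knockouts 2 and 3 lay below it. These levels rest on 90, 40 and 23 reads in knockouts and 195, 98 and 93 reads in controls. The fitted log2 fold change was -1.05 ± 0.60 (SE, adjusted p = 0.994). Without knockout 1 it was -1.96, and without control 1, which held 50.5% of the control reads, it was -0.45. Cyp26c1 had 5.18, 3.27 and 1.13 CPM in knockouts, against 14.8, 4.04 and 5.71 CPM in controls. As for Cyp26a1, knockout 1 lay within the controls, knockouts 2 and 3 lay below them, and control 1 was highest of all. The fitted log2 fold change was -1.35 ± 0.61 (SE, adjusted p = 0.994). It was -0.62 without control 1.

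Cyp26b1, the most abundant of the hydroxylases (chromosome 6, 84571414 to 84593908), had nearly equal means, 96.6 ± 31.7 CPM in knockouts and 94.5 ± 44.1 CPM in controls (SD, n = 3 each). The single embryos were far apart, at 59.9, 114 and 116 CPM in knockouts and 145, 66.7 and 71.4 CPM in controls. The embryos numbered 1 thus had the reverse order of those numbered 2 and 3. The log2 fold change of 0.03 ± 0.34 (SE, adjusted p = 0.994) changed sign with 4 of the 6 embryos left out singly, over a range of -0.17 to 0.48. Leaving out both embryos numbered 1 removes those with the reverse order, so that a positive value was fixed in advance. The log2 fold change was then 0.73 (adjusted p = 0.00855, edgeR's quasi-likelihood test), in a comparison in which 1.07% of all genes were called. There sex and genotype cannot be told apart, since knockouts 2 and 3 carry Ddx3y and the controls do not. In the comparison of all 6 embryos sex is unbalanced too, since knockout 1 alone of the knockouts is like the controls in Xist and Ddx3y. On the FPKM scale Cyp26b1 made up 61.4%, 86.9% and 93.0% of the Cyp26 sum in knockouts 1, 2 and 3, against 63.3%, 71.6% and 68.3% in controls. The sum itself was 9.14, 11.6 and 10.1 FPKM in knockouts and 18.1, 8.38 and 9.31 FPKM in controls.

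The binding proteins showed no separation of the groups. Crabp2 (chromosome 3, 87948693 to 87953372), which carries retinoic acid to the receptors, had the most reads of the 10 genes. It had 174, 137 and 171 CPM in knockouts and 173, 119 and 134 CPM in controls, at a log2 fold change of 0.18 ± 0.17 (SE, adjusted p = 0.994). Crabp1 (chromosome 9, 54764748 to 54773110), which binds retinoic acid and takes it to the hydroxylases, had 34.8, 20.6 and 12.9 CPM in knockouts and 24.4, 30.1 and 36.5 CPM in controls. Knockouts 2 and 3 lay below every control, and knockout 1 lay among them. The fitted log2 fold change was -0.42 ± 0.32 (SE, adjusted p = 0.994) and became -0.86 without knockout 1 and -0.14 without knockout 3.

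Over all 10 members, edgeR's quasi-likelihood test with Benjamini-Hochberg adjustment called 0, as against 22 of 14717 genes (0.149%). With 1 embryo left out it called 0 members each time, and 0 to 30 genes. The members and the further lists below were chosen with earlier results of these data known. The shares over all genes are therefore background and no test of the set. At an unadjusted p under 0.05 were 4 members, all higher in knockouts (Rdh10, Dhrs3, Aldh1a2 and Aldh1a3), where 2.87% of all genes tested were higher and 4.77% differed in either direction. The lowest unadjusted p was 0.00134, for Rdh10. DESeq2 called 3, all higher (Rdh10, Dhrs3 and Aldh1a2), against 0.657% of the genes it gave an adjusted p. The authors' deposited table gave the same 3 and Aldh1a3 an FDR under 0.05, also higher, against 0.433% of genes by their main row. Groups were separated in 3 members, all higher, where 5.4% of the genes tested were separated in that direction. For these 3, the exact permutation test over embryos (two-sided) gives p = 0.10, its smallest possible value with 3 per group. The median log2 fold change of the members was 0.18, against 0.00 over all genes tested. Positive were 7 of the 10, against 7398 of the 14717 genes tested. Of these 7, Aldh1a1 and Cyp26b1 changed sign with 1 embryo left out. In the 16 alternative analyses, Rdh10, Dhrs3 and Aldh1a2 had log2 fold changes of 0.63 to 1.16, 0.88 to 1.99 and 0.68 to 1.24. Since every knockout lay above every control in these genes, leaving embryos out could hardly change the sign. The constant direction is therefore no added support. DESeq2 was the 1 alternative of these 16 that called Rdh10, Dhrs3 and Aldh1a2.

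**Figure D3:**
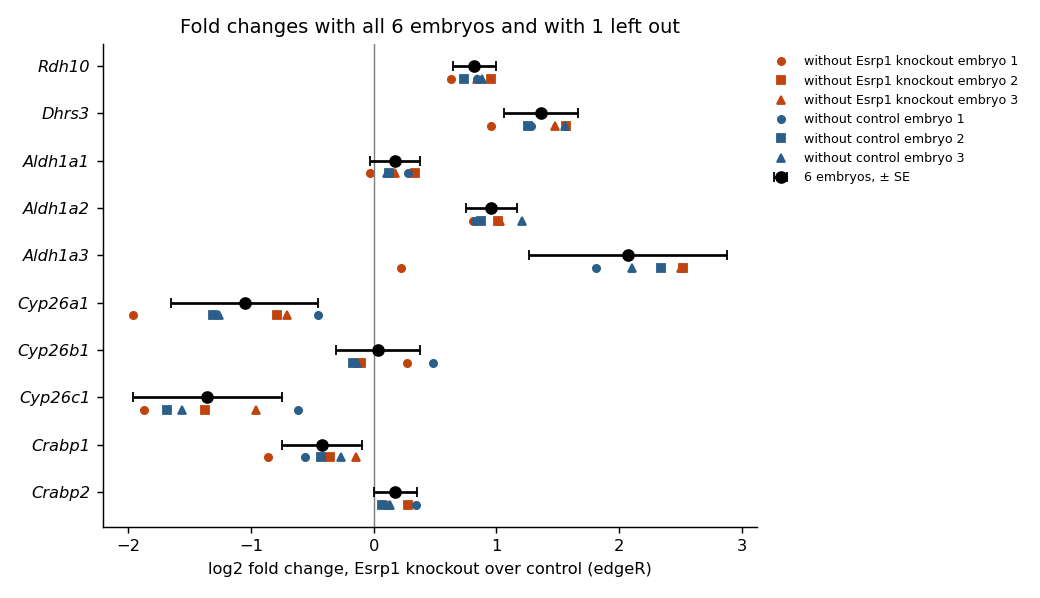
edgeR log2 fold changes, Esrp1 knockout over control, of the 10 genes with all 6 embryos (black, ± SE) and with 1 embryo left out (coloured points below, orange where a knockout and blue where a control was left out). Rdh10, Dhrs3 and Aldh1a2, whose groups do not overlap and whose sign could thus hardly change, stay right of 0. Aldh1a3 moves from 2.07 to 0.22 without knockout 1, and Cyp26b1 lies on either side of 0.

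Ordered by mean FPKM, which takes length into account, Crabp2 was highest in both groups, at 81.9 ± 12.9 FPKM in knockouts and 69.9 ± 8.18 FPKM in controls (SD, n = 3 each), with no overlap with the next gene. In controls Crabp1 followed at 18.5 ± 4.53 FPKM, also clear of the next. Below it, Cyp26b1, Rdh10 and Aldh1a2 had means of 7.95, 7.43 and 7.08 FPKM with overlapping ranges. The controls' Aldh1a1, Aldh1a3 and Dhrs3 came next at 4.43, 4.23 and 3.32 FPKM, and Cyp26c1 and Cyp26a1 last at 2.25 and 1.75 FPKM, each range overlapping that of its neighbour. In knockouts the genes from Aldh1a3 to Aldh1a1 formed a chain of overlapping ranges, from 18.7 ± 24.0 FPKM to 5.22 ± 1.53 FPKM. Cyp26c1 and Cyp26a1 were again last there, at 0.97 and 0.95 FPKM, below the range of every other member. Rdh10 exceeded Dhrs3 in every embryo, 1.28, 1.79 and 1.79 times in knockouts 1, 2 and 3, against 2.61, 2.34 and 1.94 times in controls 1, 2 and 3. These ratios did not overlap between the groups, but both genes had already been seen to differ, by unequal amounts. How many pairs of genes separate in this way was not counted. The ratios use the Dhrs3 row with the most reads, and the other row had lower FPKM in every embryo. The summed Aldh1a FPKM was 7.79, 1.88 and 2.09 times the summed Cyp26 FPKM in knockouts, against 0.67, 2.01 and 1.96 times in controls. The embryos numbered 1 were the extremes of that ratio, and the other 4 lay close together.

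Other genes of the pathway were read from 3 lists. Of 26 genes of retinoid uptake, storage and further retinol or retinaldehyde enzymes with a row, 15 were tested, and the other 11 stayed under 0.915 CPM in every embryo. edgeR called 0 and DESeq2 called 0. In edgeR 2, Ttr and Stra6, had an unadjusted p under 0.05, both higher, where 2.87% of all genes tested were higher. The median log2 fold change of the 15 was 0.10. Ttr, which encodes transthyretin, a blood carrier in thyroxine and retinol transport, had 146, 23.5 and 24.4 CPM in knockouts, against 14.3, 14.3 and 11.1 CPM in controls. Knockout 1 was 5.99 times as high as any other embryo, and the groups did not overlap (log2 fold change 2.29 ± 0.67, adjusted p = 0.533). The authors' deposited table gave Ttr a log2 fold change of 2.06 and an FDR of 0.000243. Stra6, the cell-surface receptor for retinol uptake, had 52.7, 38.0 and 48.6 CPM in knockouts, against 36.0, 19.6 and 31.0 CPM in controls, also without overlap (0.68 ± 0.23, adjusted p = 0.712). Lrat, which esterifies retinol for storage, had 2.59, 0.43 and 0.33 CPM in knockouts, against 0.63, 0.14 and 0.65 CPM in controls, with overlapping groups (1.23 ± 0.89, adjusted p = 0.994). Knockout 1 was the highest embryo by more than 1.5 times for Ttr and Lrat, as it was for Aldh1a3 and Dhrs3. Bco2, a carotenoid-cleaving oxygenase, was low throughout at a mean of 0.07 FPKM in knockouts and 0.16 FPKM in controls (log2 fold change -1.25 ± 0.58). Its groups did not overlap either, at 0.15, 0.54 and 0.27 CPM in knockouts, against 0.63, 0.64 and 1.13 CPM in controls. Of the 15 genes tested, 3 were separated higher and 1 lower, where 795 and 653 of all 14717 genes tested were. Adh5, an alcohol dehydrogenase, and Fabp5, a fatty-acid-binding protein that can carry retinoic acid, were abundant at 43.0 and 16.9 FPKM in knockouts and 40.6 and 15.3 FPKM in controls, with log2 fold changes of 0.04 ± 0.14 and 0.10 ± 0.25. Dhrs4, a retinaldehyde reductase, had 12.7 FPKM in knockouts and 12.3 FPKM in controls (log2 fold change 0.0071 ± 0.13).

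All 14 receptors and co-regulators were tested. edgeR called 0, DESeq2 called 0 and the authors' deposited table called 0. In edgeR 2 had an unadjusted p under 0.05, where 4.77% of all genes tested did. The median log2 fold change was -0.06, with a range of -0.48 to 0.30. Rxrg, a retinoid X receptor, had the lowest value (-0.48 ± 0.18, adjusted p = 0.903), at 28.1, 35.3 and 38.7 CPM in knockouts, against 58.5, 43.3 and 40.4 CPM in controls. Rarg, a retinoic acid receptor, had the highest (0.30 ± 0.13, adjusted p = 0.994), at 66.0, 61.9 and 56.2 CPM in knockouts, against 48.6, 45.4 and 55.5 CPM in controls. Both had separated groups by a margin under 2 CPM. Rara and Med1, a receptor and a subunit of the Mediator complex, had -0.15 ± 0.15 and -0.20 ± 0.18. The most abundant per length were the co-repressor Ncor1 (15.5 FPKM in knockouts, 16.8 in controls), Rxrb (14.6 and 12.95), Rxra (12.9 and 13.1) and Rarb (11.2 and 9.77).

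Of 22 genes known as retinoic acid targets, 16 were tested, and 5 of the 22 also stood among the members or on the lists above. The 6 that were not tested stayed under 0.839 CPM in every embryo. edgeR called 0, and 4 had an unadjusted p under 0.05 in it (3 higher, 1 lower), where 4.77% of all genes tested did. Of these 4, Dhrs3 and Stra6 were already counted above. DESeq2 called 2 higher, Dhrs3 and Tgm2, against 0.657% of the genes it gave an adjusted p. The median log2 fold change of the 16 was 0.10. Tgm2, a transglutaminase, had 48.4, 33.2 and 52.5 CPM in knockouts, against 19.1, 17.9 and 32.1 CPM in controls (log2 fold change 0.96 ± 0.26, adjusted p = 0.436 in edgeR, 0.0461 in DESeq2). Meis1, a homeobox gene, had 20.1, 25.4 and 27.4 CPM in knockouts, against 62.4, 32.1 and 40.5 CPM in controls (-0.88 ± 0.25, adjusted p = 0.471), and an FDR of 0.0172 in the authors' deposited table. Cyp26a1 and Rarb, whose promoter windows hold the paired motif, had -1.05 ± 0.60 and 0.18 ± 0.31. Rarb stood at 78.9, 75.6 and 67.1 CPM in knockouts and 32.7, 74.5 and 87.7 CPM in controls, with control 1 apart from the rest. The nuclear receptor genes Nr2f1 and Nr2f2 were abundant, at 40.5 and 17.2 FPKM in knockouts and 36.8 and 16.1 FPKM in controls, with log2 fold changes of 0.11 ± 0.20 and 0.09 ± 0.19. Tbx1, a T-box transcription factor gene, had 12.4 FPKM in knockouts and 10.3 FPKM in controls (0.21 ± 0.23).

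**Figure D4:**
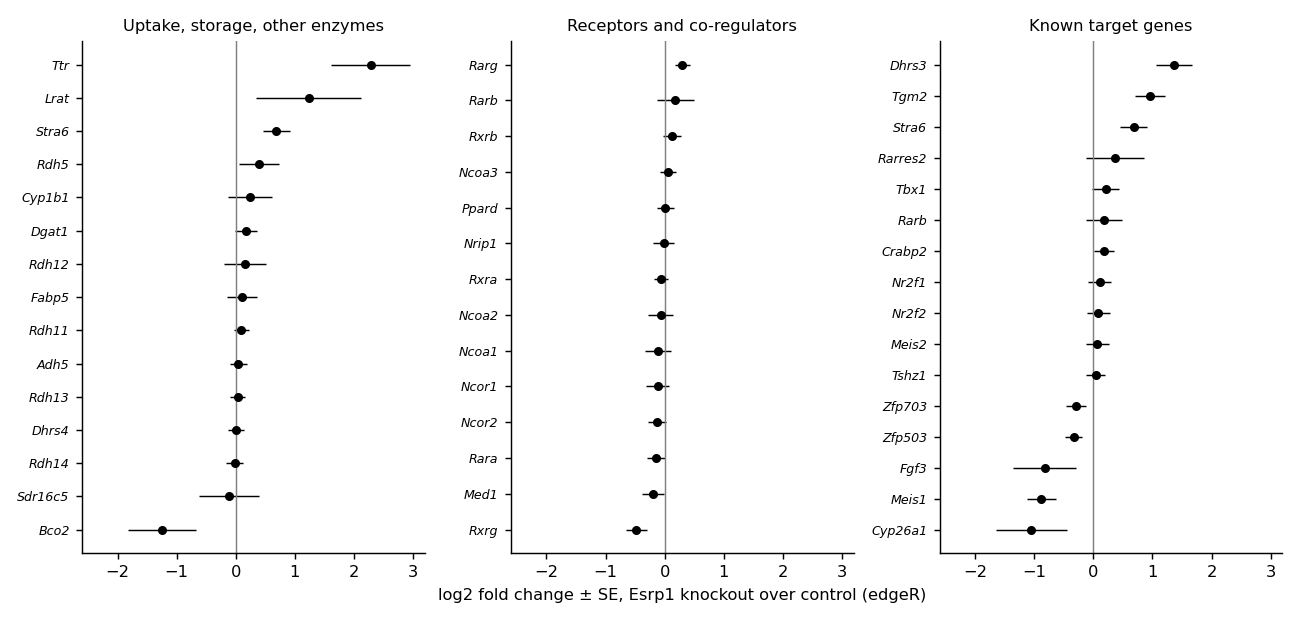
edgeR log2 fold changes ± SE, Esrp1 knockout over control (3 embryos each), of the tested genes on the 3 further retinoid lists. Ttr (2.29) is the highest on the left, the receptors and co-regulators in the middle lie within -0.48 to 0.30, and the target genes on the right run from -1.05 to 1.36.

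The genes whose pattern over the 6 embryos was most like that of a member were looked up among the 14716 other genes tested, by the root mean square difference in log2 CPM after centring each gene. For Crabp2, the member with the most reads, they were Reep6, Nipal3 and F8a, at differences of 0.02, 0.02 and 0.04. For Rdh10, the member with the smallest p, they were the zinc finger gene Zbtb16, Steap2 and Phyhd1, at 0.12, 0.12 and 0.13. Zbtb16 had 10.2, 7.46 and 9.47 CPM in knockouts, against 5.70, 4.94 and 6.52 CPM in controls. By the same measure Crabp2 and Rdh10 differed from their own means by 0.22 and 0.45. The nearest of 14716 genes over 6 embryos lie close through the search itself, so that the small differences do not show shared regulation.

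Markers of the cell types that the sample could hold were summed per embryo. The 10 markers of Reissner's membrane and the roof summed to 8589 to 10953 CPM in knockouts, against 3334 to 7195 CPM in controls, without overlap, but 94.4% of that was Oc90. Without this otoconial matrix gene the sums were 369 to 456 CPM in knockouts and 295 to 576 CPM in controls and overlapped. The cochlear epithelium markers, 55.4% of them Oc90, summed to 14083 to 18145 CPM in knockouts and 7108 to 13545 CPM in controls, and overlapped once it was left out. The 8 strial marginal cell markers summed to 271 to 342 CPM in knockouts, against 424 to 623 CPM in controls, without overlap. The sums for outer sulcus, hair cells, mesenchyme, cartilage, endothelium, macrophages, melanocytes, neurons, Schwann cells and red blood cells overlapped between the groups, with or without the top gene of each list. The choroid plexus-type markers, among them Ttr, summed to 305 to 412 CPM in knockouts and 236 to 333 CPM in controls and overlapped. Without Clic6, their most abundant gene (47.9%), they summed to 306, 173 and 176 CPM in knockouts, against 115, 123.2 and 113 CPM in controls, without overlap. Ttr, which is part of this sum, gave 146, 23.5 and 24.4 CPM of it in knockouts and 14.3, 14.3 and 11.1 CPM in controls. The higher sum of knockout 1 among the knockouts is thus largely that of Ttr itself. No measured marker on any list averaged under 0.1 CPM. The part of these markers, of sex and of the immediate early genes in the retinoid differences was not tested beyond the fits with embryos left out and with Xist as a covariate.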

How the data were processed

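The authors deposited 1 table with a column of read counts and a column of FPKM per embryo, in which the 2 libraries of an embryo stand together. Counts are whole reads for each RefSeq transcript row, per the file headers, and the FPKM are scaled by transcript length and library size. The log2 fold changes, p-values and FDR of the authors' deposited table come, per the file headers, from edgeR, which ran over all rows. mm10 is the build in the submitters' processing notes, and what aligned and counted the reads is not given in the sources used here. Another 6 per-embryo columns were not used. The table had 28644 rows for 22869 symbols, and 0 rows without a gene.

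Of several rows of a gene, the one with the most reads was used. Of the members, 8 had 1 row and 2 (Dhrs3 and Cyp26b1) had 2 rows. Genes were kept with filterByExpr (minimum count 10), scaled by TMM and tested with edgeR 4.0.16's quasi-likelihood F test in R 4.3.3, knockout over control, with Benjamini-Hochberg adjustment over all genes and a threshold of 0.05. The SE is the absolute log2 fold change divided by the root of F. Alternatives used DESeq2 1.42.0 and limma 3.58.1 on log2(FPKM + 0.1), among others. CPM are on the TMM scale. Read numbers carry counting error only. Promoter sequences and coordinates are RefSeq's on GRCm38.p6, matched by symbol. Members and lists were chosen with earlier results of these data known. Named genes are Esrp1, the members, the genes of each further list with the 4 smallest p or the 4 highest mean FPKM, and the 3 genes most like Crabp2 and Rdh10. Other genes named (Xist, Ddx3y, Fos and Oc90) were chosen after their values were seen. Some genes of these lists are not reported here and are left out of the lists' counts and medians.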

Additional observations from a re-analysis of the deposited data

How the results depend on the processing

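Depth limits Cyp26a1 and Cyp26c1 most, which rest on 539 and 577 reads in all. The count of genes called, 22, was 166 in DESeq2, 6 with Xist as a covariate, 159 without both embryos numbered 1, 0 without knockouts 2 and 3, and 0 to 30 with 1 embryo left out (12, 0 and 4 without knockouts 1, 2 and 3, and 30, 13 and 0 without controls 1, 2 and 3). The count of members called, 0, was 3 in DESeq2 and 1 (Cyp26b1) without both embryos numbered 1, and 0 in the other 14 alternatives. The Cyp26b1 call followed from leaving out the embryos with the reverse order and is no added support. Ttr was called with Xist as a covariate, as the 1 gene of the uptake list, and the target list had 2 in DESeq2. Receptors and co-regulators had 0 in all 16 alternatives. Esrp1 missed the threshold at -2.36 both with Xist as a covariate and without knockouts 2 and 3, and ranged over -2.23 to -1.71 with 1 embryo left out. Signs changed for Aldh1a1 with 1 embryo left out (-0.027 to 0.33), for Aldh1a3 without both embryos numbered 1 (-0.037), for Cyp26a1 with Xist (0.059), and for Crabp1 with Xist (0.26) and without knockouts 2 and 3 (0.19). Cyp26b1 had -0.17 to 0.48 with 1 embryo left out, -0.69 with Xist and -0.66 without knockouts 2 and 3. These causes were not tested. The fit without knockouts 2 and 3 assumes that knockout 1 varies like the controls, and those with Xist rest largely on it.

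With the embryo number as a replicate block, 6 genes were called, Esrp1 had -1.996 (adjusted p = 0.134) and 0 members were called. Same-numbered embryos deviated from their group means with correlations of 0.077, 0.177 and 0.029 over 14717 genes. Those of differently numbered embryos ran from -0.224 to 0.158. These values do not decide whether same-numbered embryos belong together, and the main fit did not treat them as paired. In the labels the description codes of same-numbered embryos begin alike, and no label says what the shared part stands for, so a shared litter or batch cannot be told. In Fos both embryos numbered 1 were the highest of their groups. Among the members this held for Aldh1a1, Cyp26a1, Cyp26c1 and Crabp2, and not for the others. How many of all genes share this order was not counted.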
